A study of Mus musculus with 8 samples.

Results

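The respiratory chain was followed as 106 genes of the 34745 in the deposited tables, chosen by gene name: complex I (Nduf), complex II (Sdha to Sdhd), complex III (Uqcr and Cyc1), complex IV (Cox4 to Cox8), ATP synthase or complex V (Atp5), and the genes of the mitochondrial genome (mt-), with names marked as pseudogenes left out. Of these, 93 are encoded in the nucleus and 13 are the protein-coding mRNAs of the mitochondrial genome. Of the 93 nuclear genes, 83 encode subunits or subunit isoforms and 10 encode assembly factors or other proteins that share the names. Mitochondrial rRNAs and tRNAs were not analysed here.

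RNA was sequenced from crypts, the glands of the intestinal epithelium, of wild-type (WT) C57BL/6 mice at day 5. The 4 DSS+CA libraries come from mice given dextran sulfate sodium (DSS), a compound used to induce colitis in mice, together with CA, which the series' design text calls cholic acid, a primary bile acid. The 4 DSS libraries come from mice given DSS alone. The design text calls the crypts of both groups colitic, no measure of disease was used here, and no untreated group was analysed here. The labels give no gut segment, dose or route, and they do not say that replicates are separate animals, so that p-values cover only how far these samples vary, and that variation may be technical.

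The chain passes electrons from NADH through complex I, or from succinate through complex II, to ubiquinone, then through complex III and cytochrome c to complex IV, which reduces oxygen. Complexes I, III and IV pump protons, and complex V uses the gradient to make ATP. Complex II is wholly nuclear encoded, and the others combine nuclear subunits with subunits made inside the mitochondrion, whose genes are read as long transcripts from both strands of a small circular genome and cut into mRNAs. In the intestine, cells along the crypt differ in their reliance on this chain.

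Total counts lay between 13334012 and 17973196 per library. Epithelial markers (Epcam, Cdh1, Vil1 and keratins) summed to 10290 to 10910 CPM (counts scaled to library size, with TMM factors) in DSS+CA libraries and to 9843 to 11020 CPM in DSS libraries. These markers show epithelium and do not tell crypt from villus, so the name crypt follows the submitters' label. Crypt base stem cell markers (Olfm4, Ascl2 and others) summed to 297 to 743 CPM in DSS+CA libraries and to 450 to 1622 CPM in DSS libraries, and absorptive enterocyte markers to 35800 to 115500 CPM in DSS+CA libraries and to 33080 to 105200 CPM in DSS libraries. The enterocyte genes Sis and Apoa4 averaged 3595 and 16200 CPM in DSS+CA libraries, and 3723 and 19110 CPM in DSS libraries. Defa24, a Paneth cell gene, averaged 2402 CPM in DSS+CA libraries and 8267 CPM in DSS libraries. The crypts are therefore not called colonic here, and no gut segment was assigned. 3 libraries stood apart in the harmonic mean of gene length over counted reads, with the deposited lengths. Short genes weigh most in this mean, and the short mt- genes are part of it. It was 1445 in DSS+CA 3 and 1423 and 1448 in DSS 2 and DSS 3. The other DSS+CA libraries had 2007 to 2412, and the other DSS libraries 1719 and 2234. Several spreads and medians that move with the 3 libraries that stood apart are also given without them. In bulk RNA, fewer cells of a type and less RNA per cell cannot be told apart.

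Of the 106 members, 98 passed the filter on low values, which asked for an FPKM of 1 or more in 4 or more libraries. With edgeR's quasi-likelihood test and Benjamini-Hochberg adjustment over 9913 tested genes, 0 of the 98 had an adjusted p under 0.05, where 0.131% of all tested genes did. At an unadjusted p under 0.05, edgeR called 0 of the 98 members, where it called 775 of all 9913 genes (7.82%). DESeq2 called 4 of the 98 at that p, where it called 878 of all genes (8.86%), and 0 after adjustment, where it called 2.22% of all genes. For 0 members did the 4 DSS+CA libraries lie above or below all 4 DSS libraries, against 3.24% of all tested genes lying above and 2.81% lying below. The log2 fold change, DSS+CA over DSS, was above 0 for 56 of the 98 members, where 51.9% of all tested genes were above 0. These values are read against a median log2 fold change of 0.02 over all tested genes.

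The nuclear and mitochondrial members of the chain had medians on opposite sides of 0. The 75 tested nuclear subunits had a median log2 fold change of 0.07 (46 above 0, range -0.46 to 0.66). The 13 mt- mRNAs had a median of -0.56 (1 above 0, range -0.98 to 0.03). The 10 assembly factors and other proteins had a median of 0.36 (9 above 0). Among nuclear subunits the medians were 0.09 for complex I (36 genes), 0.13 for complex II (4 genes), -0.05 for complex III (9 genes), 0.09 for complex IV (12 genes) and 0.01 for complex V (14 genes). No nuclear complex had a median far from 0. Among mt- mRNAs they were -0.56 for the 7 of complex I, -0.84 for the 1 of complex III, -0.71 for the 3 of complex IV and -0.35 for the 2 of complex V. Since no member passed the test, these medians describe the libraries and name no changed gene. The nuclear median was -0.45 without DSS+CA 3 and 0.39 without DSS 3, while the mt- median stayed negative without any 1 library (-1.06 to -0.27). Without DSS+CA 3, DSS 2 and DSS 3 together, the nuclear median was 0.23 and the mt- median -0.69.

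**Figure D1:**
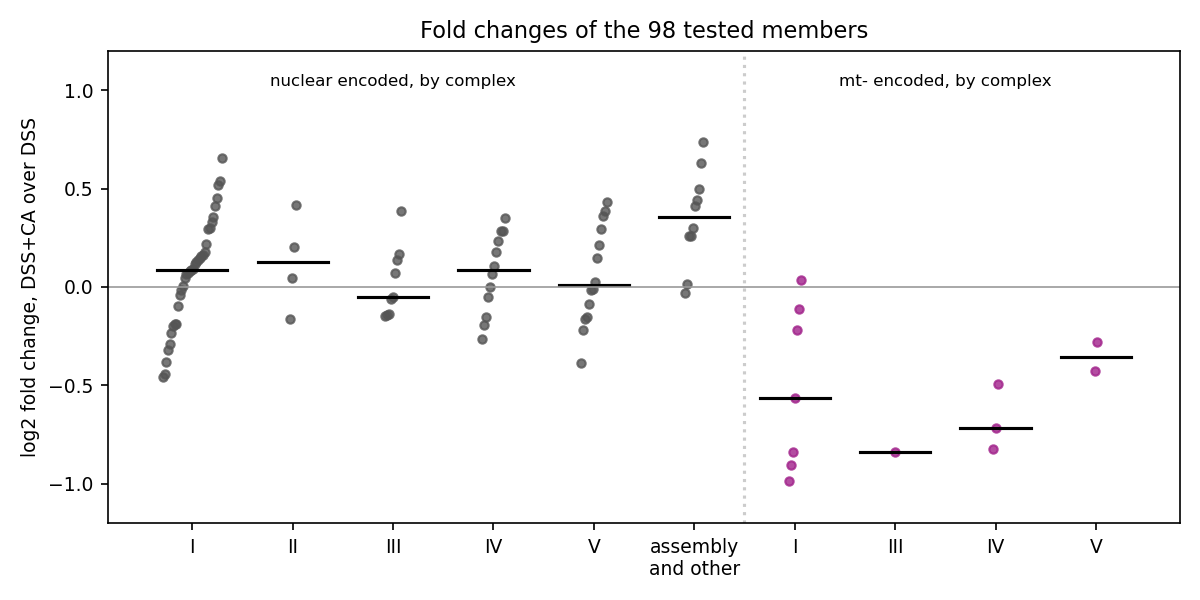
Log2 fold change (y axis, DSS+CA over DSS, edgeR) of each of the 98 tested members by complex, with nuclear genes to the left of the dotted line and mt- genes to the right; short bars are medians. Nuclear complexes have medians between -0.05 and 0.13, and mt- complexes between -0.84 and -0.35.

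The balance of mitochondrial and nuclear transcripts can be read within a library, without scaling between libraries. The mt- mRNAs took 9.72, 14.1, 20.5 and 13.2% of all counts in DSS+CA 1 to 4, and 16.2, 27.7, 17.8 and 19.8% in DSS 1 to 4 (mean 14.4 ± 4.48% and 20.4 ± 5.10%, SD, n = 4 each). The nuclear subunits took 1.91, 2.18, 2.62 and 2.11% in DSS+CA 1 to 4, and 1.28, 1.66, 2.77 and 1.72% in DSS 1 to 4. Both shares overlapped between the groups. The ratio of mt- to nuclear counts was 5.09, 6.49, 7.82 and 6.27 in DSS+CA 1 to 4, and 12.7, 16.7, 6.43 and 11.5 in DSS 1 to 4. DSS 1, 2 and 4 lay above every DSS+CA library, and DSS 3 lay among them. On the log2 scale the ratio averaged 2.67 ± 0.25 in DSS+CA libraries and 3.48 ± 0.58 in DSS libraries (SD, n = 4 each), a difference of -0.82 that was not tested because the genes in it were chosen with earlier results known. The difference was -1.03 without DSS+CA 3, DSS 2 and DSS 3, and it lay between -1.08 and -0.62 when any 1 library was left out.

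The same order held within most complexes. For complex I the ratio was 5.38, 7.43, 5.82 and 5.68 in DSS+CA 1 to 4, and 15.8, 12.3, 4.13 and 10.6 in DSS 1 to 4. For complex III, where mt-Cytb is the sole mitochondrial subunit, it was 2.57, 3.41, 2.60 and 2.75 in DSS+CA 1 to 4, and 8.33, 8.87, 1.43 and 5.83 in DSS 1 to 4. For complex IV it was 19.8, 22.0, 20.5 and 23.3 in DSS+CA 1 to 4, and 47.1, 46.8, 20.2 and 36.0 in DSS 1 to 4. In each of these 3 complexes DSS 1, 2 and 4 were above all DSS+CA libraries and DSS 3 was not. For complex V the groups were interleaved, with 0.939, 1.18, 2.30 and 1.38 in DSS+CA 1 to 4, and 1.72, 3.77, 1.28 and 2.17 in DSS 1 to 4.

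**Figure D2:**
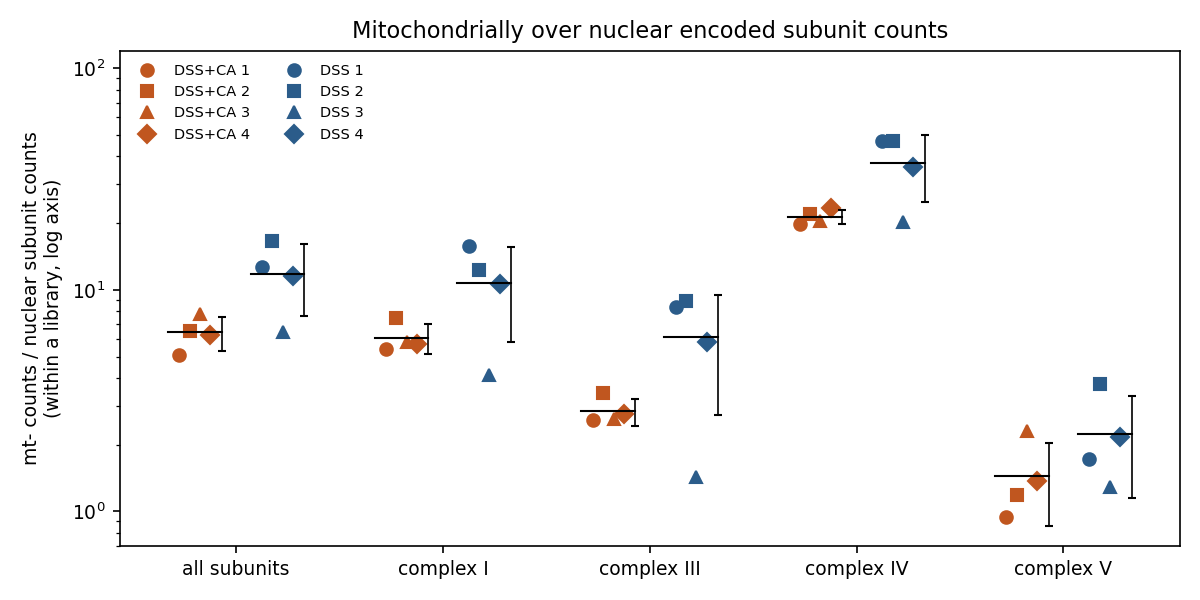
Ratio of mt- counts to nuclear subunit counts within each library (y axis, log scale), for all subunits and for each complex with mitochondrial subunits; points are libraries, bars are group means with SD (n = 4 each), DSS+CA left and DSS right of each pair. The 4 DSS+CA libraries lie between 5.09 and 7.82 for all subunits, and DSS 1, 2 and 4 lie between 11.5 and 16.7.

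Cell-type markers also moved with the groups, and their part in the ratio was not tested. The 11 T and NK cell markers summed to 65.6 to 263 CPM in DSS+CA libraries and to 311 to 736 CPM in DSS libraries, with 0 of 11 above a log2 fold change of 0 and 1 lower call (Itgae). The 9 myeloid markers summed to 11.7 to 22.8 CPM in DSS+CA libraries and to 25.4 to 34.0 CPM in DSS libraries. The 7 B and plasma cell markers summed to 13.5 to 27.6 CPM in DSS+CA libraries and to 52.4 to 79.9 CPM in DSS libraries. All 3 immune lists were lower in every DSS+CA library than in every DSS library. Of the 7 measured Paneth cell markers 0 were above 0, and they summed to 4366 to 17200 CPM in DSS+CA libraries and to 5753 to 37540 CPM in DSS libraries. Of the 7 goblet cell markers 1 was above 0 (median -1.01, 0 called), and they summed to 3691 to 8801 CPM in DSS+CA libraries and to 7978 to 13060 CPM in DSS libraries, which overlapped. Of the 6 tested crypt base stem cell markers 2 were above 0 (median -0.27, 0 called). The sums of stem cell and of absorptive enterocyte markers, given above, overlapped between the groups, and enterocyte markers were highest in DSS+CA 3 and DSS 3. RNAs retained in the nucleus summed to 83.2 to 481 CPM in DSS+CA libraries and to 217.6 to 727 CPM in DSS libraries.

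The mitochondrial mRNAs include a pair of messages that each carry 2 reading frames, and the ends where those frames overlap are shown here because the ratios that follow concern these genes. Mouse mt-Nd4l and mt-Nd4 overlap by 7 bases and mt-Atp8 and mt-Atp6 by 43 bases on the same strand (GRCm38 coordinates of the deposited tables, GENCODE vM21 transcripts). The last or first 60 bases of each gene are given with the shared bases in capitals.
mt-Nd4l, chrM:10114-10173, plus strand: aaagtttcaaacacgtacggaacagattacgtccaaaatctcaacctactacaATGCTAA
mt-Nd4, chrM:10167-10226, plus strand: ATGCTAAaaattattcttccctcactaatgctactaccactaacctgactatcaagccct
mt-Atp8, chrM:7910-7969, plus strand: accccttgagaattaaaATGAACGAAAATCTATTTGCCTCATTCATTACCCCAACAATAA
mt-Atp6, chrM:7927-7986, plus strand: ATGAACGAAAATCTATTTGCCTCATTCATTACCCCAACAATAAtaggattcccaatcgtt

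Genes on 1 message kept the closest ratio. Over the 8 libraries the count ratio of mt-Nd4l to mt-Nd4 was 0.263, 0.253, 0.234 and 0.225 in DSS+CA 1 to 4, and 0.257, 0.258, 0.254 and 0.265 in DSS 1 to 4, a highest library 1.18-fold above the lowest. The ratio of mt-Atp8 to mt-Atp6 was 2.48, 2.43, 2.48 and 2.44 in DSS+CA 1 to 4, and 2.45, 2.11, 2.24 and 2.36 in DSS 1 to 4, also 1.18-fold. With the counts of the nuclear copy of mt-Atp6, described further on, added to mt-Atp6, the ratio was 1.17 to 1.35 over the 8 libraries. Of the 78 pairs among the 13 mt- mRNAs, these had the smallest spread and the next smallest. The following pair in that order, mt-Co2 and mt-Co1, spread 1.496-fold. The shared bases are 21.1% of mt-Atp8 and 2.36% of mt-Nd4l, and how reads over them were counted is not known. Their part in the narrow spread of these pairs on 1 message was not tested.

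Neighbouring genes on separate messages ranged from narrow to wide spreads. mt-Co1 and mt-Co2 are themselves such neighbours, mt-Co3 and mt-Nd3 spread 1.76-fold, and mt-Nd1 and mt-Nd2 spread 2.12-fold. The ratio of mt-Nd3 to mt-Nd4l, which lie 70 bases apart with a tRNA between them, was 1.15, 1.05, 9.45 and 2.36 in DSS+CA 1 to 4, and 0.565, 1.83, 5.27 and 1.25 in DSS 1 to 4. That is a 16.7-fold spread, the widest of the 78 pairs, with DSS+CA 3 and DSS 3 high. It was 9.33-fold without DSS+CA 3 and 4.17-fold without DSS+CA 3, DSS 2 and DSS 3. The ratio of mt-Co3 to mt-Co1, both core subunits of complex IV but not neighbours, was 0.315, 0.381, 1.33 and 0.467 in DSS+CA 1 to 4, and 0.237, 0.587, 0.962 and 0.503 in DSS 1 to 4. Again DSS+CA 3 and DSS 3 were the highest, and the groups overlapped. The spread of 5.63-fold was 2.13-fold without DSS+CA 3, DSS 2 and DSS 3.

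**Figure D3:**
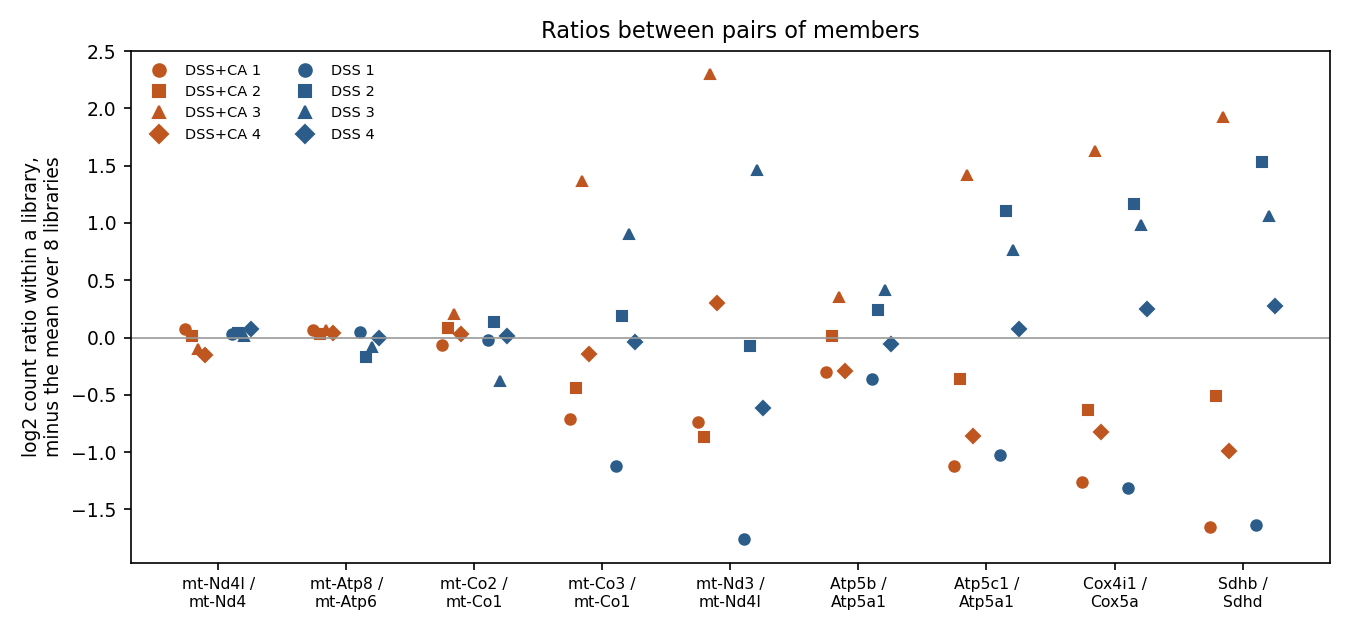
Log2 count ratio of pairs of members in each library, minus the mean of the 8 libraries (y axis); points are libraries, DSS+CA left and DSS right of each pair. The pairs on 1 message, mt-Nd4l with mt-Nd4 and mt-Atp8 with mt-Atp6, lie close to 0, and mt-Nd3 over mt-Nd4l spreads 16.7-fold, or 9.33-fold without DSS+CA 3.

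Counts of several mt- genes are uncertain because the nuclear genome holds near-identical copies. On chromosome 1, between 24611535 and 24616197, lie copies annotated as separate genes, and the ungapped copies of mt-Atp6, mt-Co2, mt-Co3, mt-Nd4l and the copied stretch of mt-Nd4 had 0 mismatches to the mitochondrial gene. The copy of mt-Nd3, Gm28438, differed at 1 base, T3C, counted from the first base of mt-Nd3 and written mitochondrial base first. The first 60 bases of both are shown with that base in capitals, since a read that misses it cannot be assigned.
mt-Nd3, chrM:9459-9518, plus strand: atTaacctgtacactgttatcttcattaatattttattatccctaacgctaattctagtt
Gm28438, chr1:24613060-24613119, minus strand: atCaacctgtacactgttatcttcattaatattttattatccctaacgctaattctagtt

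The copies took counts in the deposited tables. Gm10925, the copy of mt-Atp6, held 44.2 to 49.9% of the counts of both genes together over the 8 libraries. The copies of mt-Co2, mt-Co3 and mt-Nd4l held 10.1 to 12.4%, 11.2 to 13.3% and 11.4 to 13.3%, the copy of mt-Nd3 held 8.77 to 11.3%, and the copy of mt-Nd4 held 6.34 to 8.43%. Adding the copies to the mitochondrial genes gave a median log2 fold change of -0.56 over the 13 mt- mRNAs, the same at this precision. Absolute levels of these genes, above all mt-Atp6, are therefore less certain than their ratios between libraries. Some nuclear subunits also share sequence with other genes, so part of their counts is uncertain too. The share of 50-base stretches also found in another gene was 84.8% for Atp5l and 50.3% for Atp5o. It was 39.7% for Ndufs3, 32.0% for Cox5a, 24.8% for Uqcrc2 and 23.4% for Ndufb9. For Sdha, Sdhb, Cyc1 and Uqcrc1 it was 0%.

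All 7 mitochondrial complex I genes encode membrane core subunits of NADH dehydrogenase. mt-Nd4l had 864, 1695, 1107 and 843 CPM in DSS+CA 1 to 4, against 2376, 3426, 842 and 2275 CPM in DSS 1 to 4, and mt-Nd4 had 3284, 6701, 4722 and 3747 CPM in DSS+CA 1 to 4, against 9266, 13310, 3320 and 8600 CPM in DSS 1 to 4. In both genes DSS 1, 2 and 4 were above all DSS+CA libraries and DSS 3 was inside or below their range. The log2 fold change was -0.98, SE 0.45, adjusted p = 0.639 for mt-Nd4l, by edgeR's quasi-likelihood test with Benjamini-Hochberg adjustment as for all members here, and -0.90, SE 0.47, adjusted p = 0.717 for mt-Nd4. mt-Nd5 also had DSS 1, 2 and 4 above all DSS+CA libraries and DSS 3 among them, with 1782, 4853, 5499 and 2333 CPM in DSS+CA 1 to 4, against 6295, 8974, 4050 and 6559 CPM in DSS 1 to 4 (log2 fold change -0.84, SE 0.46, adjusted p = 0.746).

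mt-Nd2 had 2689, 4725, 4672 and 3413 CPM in DSS+CA 1 to 4, against 4615, 8766, 4199 and 5328 CPM in DSS 1 to 4 (log2 fold change -0.56, SE 0.39, adjusted p = 0.874). mt-Nd1 had 5270, 7680, 16020 and 7602 CPM in DSS+CA 1 to 4, against 7478, 17540, 8132 and 9437 CPM in DSS 1 to 4 (log2 fold change -0.22, SE 0.47, adjusted p = 0.997). mt-Nd3 had 995, 1783, 10450 and 1987 CPM in DSS+CA 1 to 4, against 1343, 6253, 4437 and 2841 CPM in DSS 1 to 4 (log2 fold change 0.033, SE 0.72, adjusted p = 0.999). The groups overlapped for each of these genes, and DSS+CA 1 was the lowest of the 8 libraries for all 3. In DSS+CA 3, mt-Nd3 was the highest of all 8 libraries. Leaving out DSS+CA 3 gave mt-Nd3 a log2 fold change of -1.23, and leaving out DSS 2 gave 0.40.

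mt-Nd6 is the complex I gene on the opposite strand, and its counts were far lower, 36.2, 80.5, 217.5 and 19.2 CPM in DSS+CA 1 to 4, against 104, 63.0, 150.2 and 64.6 CPM in DSS 1 to 4 (log2 fold change -0.11, SE 0.63, adjusted p = 0.999). It overlaps mt-Nd5 by 14 bases on opposite strands, and no source used here states how strand was counted. All 4 DSS libraries lay within the range of the DSS+CA libraries.

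In complex III, mt-Cytb encodes cytochrome b. It had 5892, 10040, 13710 and 7681 CPM in DSS+CA 1 to 4, against 12440, 30600, 7950 and 15630 CPM in DSS 1 to 4. DSS 2 and DSS 4 were above all DSS+CA libraries, while DSS 1 and DSS 3 were below DSS+CA 3 (log2 fold change -0.84, SE 0.49, adjusted p = 0.795).

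The mt-Co genes encode the catalytic core of complex IV. mt-Co1 had 30960, 45590, 74140 and 43990 CPM in DSS+CA 1 to 4, against 54230, 139000, 76760 and 74840 CPM in DSS 1 to 4 (log2 fold change -0.82, SE 0.49, adjusted p = 0.795). mt-Co2, which receives electrons from cytochrome c, had 7726, 12620, 22330 and 11770 CPM in DSS+CA 1 to 4, against 14030, 40090, 15450 and 19760 CPM in DSS 1 to 4 (log2 fold change -0.71, SE 0.50, adjusted p = 0.874). mt-Co3, the third core subunit, had 9747, 17350, 98640 and 20530 CPM in DSS+CA 1 to 4, against 12830, 81570, 73870 and 37660 CPM in DSS 1 to 4 (log2 fold change -0.49, SE 0.78, adjusted p = 0.991). DSS 2 was the highest library for mt-Co1 and mt-Co2, and DSS+CA 3 for mt-Co3. The groups overlapped for all 3 genes, and DSS+CA 1 was the lowest library for each.

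In complex V, mt-Atp6 and mt-Atp8 encode membrane subunits of ATP synthase. mt-Atp8 had 3900, 5927, 17410 and 6834 CPM in DSS+CA 1 to 4, against 5101, 17610, 9635 and 9073 CPM in DSS 1 to 4 (log2 fold change -0.28, SE 0.55, adjusted p = 0.996). mt-Atp6 had 1573, 2443, 7018 and 2799 CPM in DSS+CA 1 to 4, against 2079, 8355, 4303 and 3843 CPM in DSS 1 to 4 (log2 fold change -0.43, SE 0.55, adjusted p = 0.977). In both genes DSS+CA 3 and DSS 2 were the highest libraries and the groups overlapped. Without DSS 2 the log2 fold changes were 0.10 for mt-Atp8 and 0.02 for mt-Atp6, and without DSS+CA 3 they were -0.90 and -1.03.

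**Figure D4:**
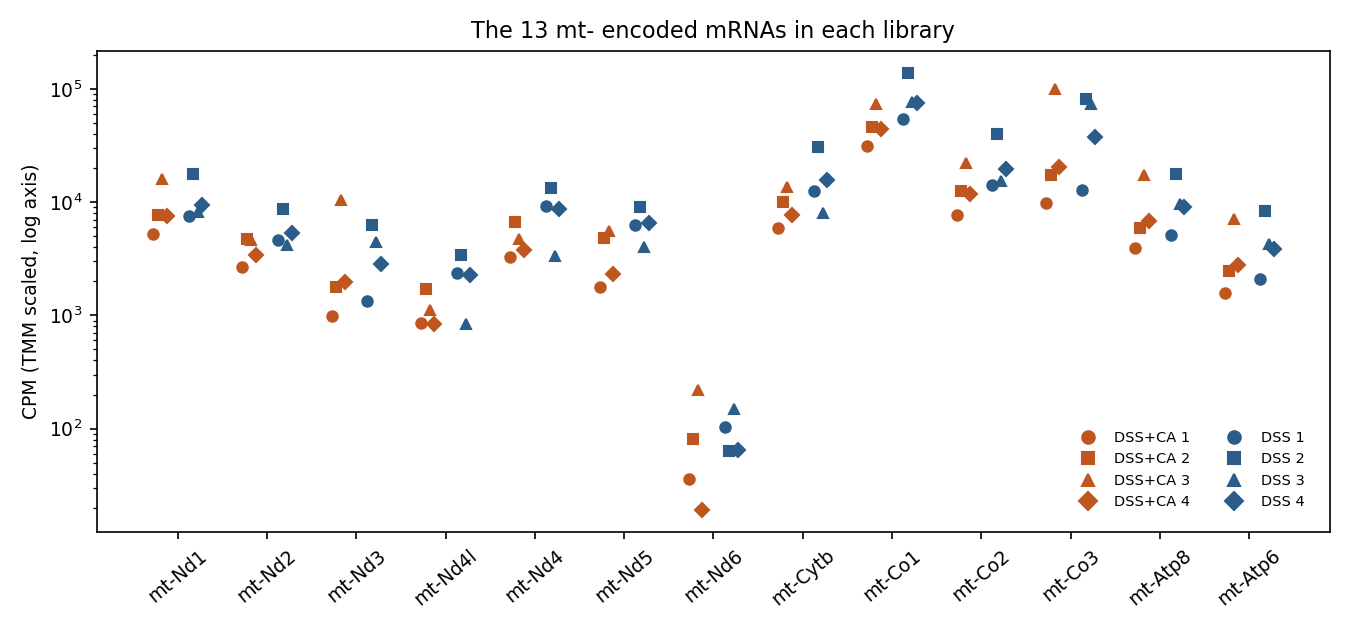
CPM (TMM-scaled, y axis, log scale) of the 13 mt- mRNAs in each library, by complex from left to right; points are libraries, DSS+CA left and DSS right of each gene. The mt-Nd4 values of DSS 1, 2 and 4 are 8600 to 13310 CPM, above the 3284 to 6701 CPM of the DSS+CA libraries, and mt-Co3 and mt-Nd3 are highest in DSS+CA 3.

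Per length, in mean deposited FPKM over the 8 libraries, the mt- mRNAs had a median level of 9440 and the tested nuclear subunits a median of 95.6. mt-Co3, mt-Atp8 and mt-Co1 were the most abundant, at 48720, 42470 and 41140 FPKM, and mt-Nd6 the least, at 166 FPKM. mt-Atp6, on the same message as mt-Atp8, had 5424 FPKM, so the rank of mt-Atp8 is uncertain. Why the levels of mt-Atp8 and mt-Atp6 differ was not tested. Among nuclear subunits Cox6b1, Cox8a and Cox4i1 had 1154, 484 and 399 FPKM. These levels rest on the deposited gene lengths, whose median was 784 bases for mt- genes and 2409 bases for nuclear subunits.

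The nuclear subunits of complex I had log2 fold changes from -0.46 to 0.66, and 24 of 36 were above 0. The 7 core subunits, which carry the redox centres, had a median of 0.18, and the 29 accessory subunits a median of 0.07. Ndufa10, an accessory subunit, had the smallest p of the nuclear subunits. It had 153, 174, 228 and 190.5 CPM in DSS+CA 1 to 4, against 94.7, 141, 165 and 113 CPM in DSS 1 to 4 (log2 fold change 0.54, SE 0.29, adjusted p = 0.739). DSS+CA 2, 3 and 4 were above every DSS library, and DSS+CA 1 lay among them. Ndufb5, an accessory subunit, had 65.0, 72.8, 109 and 82.0 CPM in DSS+CA 1 to 4, against 54.3, 76.9, 63.6 and 45.5 CPM in DSS 1 to 4 (log2 fold change 0.45, SE 0.29, adjusted p = 0.846). Ndufs3, a core subunit, had 79.7, 87.7, 65.1 and 101 CPM in DSS+CA 1 to 4, against 57.8, 52.3, 80.5 and 60.5 CPM in DSS 1 to 4 (log2 fold change 0.41, SE 0.27, adjusted p = 0.865). For both genes 1 DSS library was above at least 1 DSS+CA library.

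Subunits of the same complex I module went separate ways across libraries. Ndufs1, the large iron-sulfur core subunit, had 146, 129, 138 and 134 CPM in DSS+CA 1 to 4, against 115, 172, 81.5 and 125 CPM in DSS 1 to 4 (log2 fold change 0.15, SE 0.29, adjusted p = 0.997). Ndufv1, which binds NADH, had 102, 88.3, 50.1 and 106 CPM in DSS+CA 1 to 4, against 68.3, 36.6, 105 and 72.8 CPM in DSS 1 to 4 (log2 fold change 0.29, SE 0.36, adjusted p = 0.97). Ndufv2, its iron-sulfur partner, was picked out after its values were seen and had 128, 190.0, 499 and 178 CPM in DSS+CA 1 to 4, against 77.4, 203, 201 and 151 CPM in DSS 1 to 4 (log2 fold change 0.66, SE 0.46, adjusted p = 0.882). DSS+CA 3 was the lowest DSS+CA library for Ndufv1 and the highest of all 8 for Ndufv2. The count ratio of Ndufv2 to Ndufv1 thus ran from 1.13 in DSS 1 to 9.95 in DSS+CA 3, an 8.78-fold spread within 1 enzyme module. The spread was 4.88-fold without DSS+CA 3 and 1.90-fold without DSS+CA 3, DSS 2 and DSS 3. Ndufb9, an accessory subunit and the most abundant nuclear complex I gene by FPKM, had 137, 232, 514 and 199 CPM in DSS+CA 1 to 4, against 93.7, 302, 448 and 190.2 CPM in DSS 1 to 4 (log2 fold change 0.066, SE 0.52, adjusted p = 0.999). Exons of Ndufb9 share 19.5% of their bases with Gm49356 on the same strand, so part of its counts is uncertain.

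Complex II, succinate dehydrogenase, also serves the tricarboxylic acid cycle. Sdha, the flavoprotein subunit, was the steadiest gene of the complex, with 529.8, 526, 526 and 519 CPM in DSS+CA 1 to 4, against 485, 647, 419 and 481 CPM in DSS 1 to 4 (log2 fold change 0.048, SE 0.28, adjusted p = 0.999). Sdhb, the iron-sulfur subunit that binds to it, had 232, 461, 1535 and 374 CPM in DSS+CA 1 to 4, against 165, 863, 1343 and 542 CPM in DSS 1 to 4 (log2 fold change -0.16, SE 0.67, adjusted p = 0.999). The DSS+CA libraries were close together for Sdha, yet DSS+CA 3 was far above the other 3 for Sdhb. Sdhc, a membrane anchor, had 232, 265, 267 and 277 CPM in DSS+CA 1 to 4, against 159, 192, 372 and 179.7 CPM in DSS 1 to 4 (log2 fold change 0.21, SE 0.33, adjusted p = 0.991). Sdhd, the other membrane anchor, had 347, 312, 192 and 354 CPM in DSS+CA 1 to 4, against 243, 142, 305 and 213 CPM in DSS 1 to 4 (log2 fold change 0.42, SE 0.33, adjusted p = 0.911). Sdhd was lowest in DSS 2 and next lowest in DSS+CA 3, both high for Sdhb. The count ratio of Sdhb to Sdhd therefore spread 11.9-fold, between 0.670 in DSS+CA 1 and 7.99 in DSS+CA 3, with the groups overlapping. It spread 9.11-fold without DSS+CA 3 and 3.80-fold without DSS 2 and DSS 3 as well.

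Complex III was the nuclear group with a median below 0, at -0.05, and 4 of its 9 genes were above 0. Uqcrfs1, the Rieske iron-sulfur protein, had 230.1, 241, 227 and 256 CPM in DSS+CA 1 to 4, against 169.6, 133, 261 and 168 CPM in DSS 1 to 4 (log2 fold change 0.38, SE 0.29, adjusted p = 0.9). Cyc1, cytochrome c1, had 329, 376, 331 and 387 CPM in DSS+CA 1 to 4, against 192, 192, 604 and 279.7 CPM in DSS 1 to 4 (log2 fold change 0.17, SE 0.39, adjusted p = 0.998). Uqcrc1, a core protein, had 554.7, 643, 617 and 599 CPM in DSS+CA 1 to 4, against 322, 369.5, 1030 and 476 CPM in DSS 1 to 4 (log2 fold change 0.14, SE 0.39, adjusted p = 0.999). In all 3 genes DSS+CA libraries were close together and above DSS 1, 2 and 4, and DSS 3 was the highest library of all. Uqcrc2, the other core protein, did not follow that order and had 426, 499, 569 and 508 CPM in DSS+CA 1 to 4, against 285, 758, 443 and 418 CPM in DSS 1 to 4 (log2 fold change 0.072, SE 0.34, adjusted p = 0.999). Without DSS 3, the log2 fold changes of Cyc1 and Uqcrc1 were 0.69 and 0.63.

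Of the 19 nuclear genes of complex IV, 12 were tested, and these had the widest library-to-library spread of the complexes. Their median ratio of the highest to the lowest library was 6.37, against 3.74 for all nuclear subunits, 5.04 for mt- mRNAs and 3.06 for all tested genes. Without DSS+CA 3 these medians were 5.16, 3.15, 5.04 and 2.77, and without DSS 2 and DSS 3 as well they were 2.37, 1.92, 2.65 and 1.72. Cox4i1, a subunit needed for assembly and regulated by ATP, had 440.4, 716, 2608 and 657 CPM in DSS+CA 1 to 4, against 314, 1410, 2381 and 957 CPM in DSS 1 to 4 (log2 fold change -0.20, SE 0.66, adjusted p = 0.999). Cox5a, its partner in the complex, had 192, 202, 153 and 211 CPM in DSS+CA 1 to 4, against 142, 114, 218.3 and 147 CPM in DSS 1 to 4 (log2 fold change 0.28, SE 0.29, adjusted p = 0.953). DSS+CA 3 was the highest library for Cox4i1 and the lowest DSS+CA library for Cox5a, and their count ratio spread 7.71-fold, against 5.58-fold without DSS+CA 3 and 2.95-fold without the 3 libraries that stood apart.

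Cox6b1, at the face that meets cytochrome c, had 320.2, 441, 1155 and 399 CPM in DSS+CA 1 to 4, against 217, 841, 1210 and 508 CPM in DSS 1 to 4 (log2 fold change -0.26, SE 0.55, adjusted p = 0.997). Ndufa4, named for complex I but known as a complex IV subunit, had 138, 238, 973 and 211 CPM in DSS+CA 1 to 4, against 89.8, 479, 719.8 and 271 CPM in DSS 1 to 4 (log2 fold change 0.00099, SE 0.69, adjusted p = 0.999). DSS+CA 3 was above the other DSS+CA libraries for both, and DSS 3 was the highest DSS library. Cox6a1, the widely expressed form of subunit 6a, had 339.9, 412, 281 and 429 CPM in DSS+CA 1 to 4, against 204, 231, 518 and 288 CPM in DSS 1 to 4 (log2 fold change 0.24, SE 0.35, adjusted p = 0.99). Cox8a, the widely expressed form of subunit 8, had 306, 299.9, 152 and 339 CPM in DSS+CA 1 to 4, against 204, 157, 326 and 216 CPM in DSS 1 to 4 (log2 fold change 0.28, SE 0.35, adjusted p = 0.97). For Cox6a1 and Cox8a DSS+CA 3 was instead the lowest DSS+CA library.

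Several complex IV subunits have isoforms known from heart and skeletal muscle. Cox7a1, the muscle isoform of the 7a subunit, had 42.4, 82.3, 501 and 71.7 CPM in DSS+CA 1 to 4, against 24.1, 148, 272 and 102 CPM in DSS 1 to 4, and Cox7a2, the widely expressed isoform, had 126, 213, 824 and 164 CPM in DSS+CA 1 to 4, against 75.1, 457, 605 and 238 CPM in DSS 1 to 4. Both were highest in DSS+CA 3 and lowest in DSS 1 (log2 fold changes 0.35 and -0.05, adjusted p = 0.998 and 0.999). Per length, the FPKM of Cox7a1 was 0.663 to 1.26 times that of Cox7a2 over the 8 libraries. The other muscle isoforms were near 0, with 31 and 2 counts of Cox6a2 summed over the DSS+CA and the DSS libraries, and 0 and 1 counts of Cox8b. Markers of stroma, muscle and endothelium summed to 4.39 to 7.44 CPM in DSS+CA libraries and to 7.41 to 15.3 CPM in DSS libraries.

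8 members did not pass the filter. With no filter, edgeR tested all of them but Cox7b2 and Cox8c, and called 0 of them, with a smallest adjusted p of 0.413 by edgeR for Cox6a2. Summed over the DSS+CA and the DSS libraries, Cox4i2, an isoform known from lung, had 0 and 2 counts, and Ndufa4l2 had 2 and 1 counts. The testis isoform Cox6b2 had 137 and 150 counts, Atp5g2 had 71 and 100, and Cox7b2 and Cox8c had 0 in both. A sum of 0 allows up to 3 counts, which covers counting error only. The highest mean FPKM among these 8 genes was 0.819 and the lowest among the 98 tested was 2.07.

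In complex V, Atp5a1 and Atp5b encode the alpha and beta subunits of the catalytic F1 head. Atp5a1 had 1402, 1390, 1160 and 1631 CPM in DSS+CA 1 to 4, against 978, 829.9, 1409 and 1056 CPM in DSS 1 to 4 (log2 fold change 0.39, SE 0.31, adjusted p = 0.915). Atp5b had 2102, 2589, 2742 and 2470 CPM in DSS+CA 1 to 4, against 1403, 1809, 3470 and 1873 CPM in DSS 1 to 4 (log2 fold change 0.21, SE 0.37, adjusted p = 0.994). Their ratio was among the steadier ones between nuclear subunits described here, at a 1.72-fold spread. Atp5c1, the gamma subunit that turns inside the head, had 407, 683, 1951 and 566 CPM in DSS+CA 1 to 4, against 303, 1125, 1505 and 700.3 CPM in DSS 1 to 4 (log2 fold change -0.011, SE 0.58, adjusted p = 0.999), and its ratio to Atp5a1 spread 5.80-fold, or 4.68-fold without DSS+CA 3 and 2.29-fold without DSS 2 and DSS 3 as well. DSS+CA 3 was the lowest DSS+CA library for Atp5a1 and the highest of all 8 for Atp5c1.

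Atp5o, the stalk subunit that holds the head, had 274, 239.8, 334 and 309 CPM in DSS+CA 1 to 4, against 256, 452, 466 and 337 CPM in DSS 1 to 4 (log2 fold change -0.39, SE 0.30, adjusted p = 0.91). Exons of Atp5o share 12.7% of their bases with Donson on the same strand, so part of its counts is uncertain. Overlaps on the opposite strand, found for 29 of the 93 nuclear genes, add to this if strand was ignored in counting. They took 19.7% of exon bases in Uqcrc2 (Pdzd9), 15.8% in Atp5o (Gm15976) and 12.8% in Cox5a (Gm26631). Atp5g1, 1 of the genes for the proton-carrying c ring, had 55.8, 63.3, 82.2 and 68.7 CPM in DSS+CA 1 to 4, against 30.9, 37.7, 90.0 and 42.0 CPM in DSS 1 to 4 (log2 fold change 0.43, SE 0.36, adjusted p = 0.92). DSS 2 and DSS 3 were above all other libraries for Atp5o, and DSS 3 alone was above the DSS+CA libraries for Atp5g1.

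**Figure D5:**
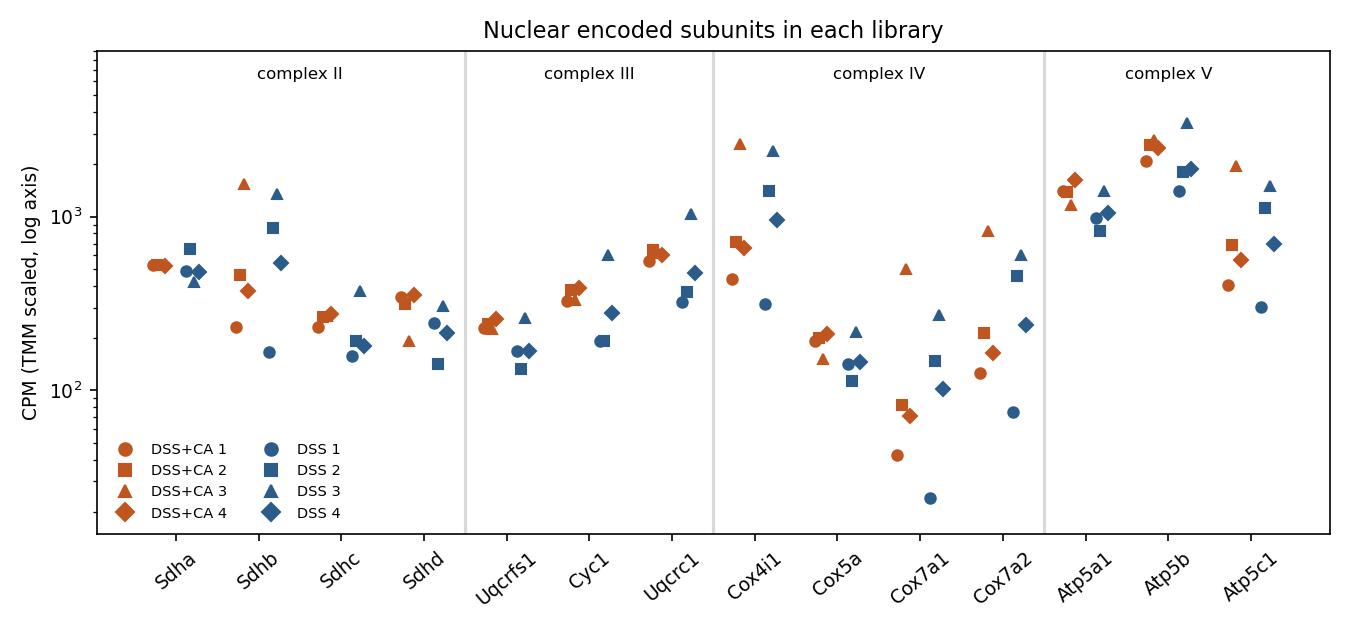
CPM (TMM-scaled, y axis, log scale) of 14 nuclear encoded subunits of complexes II to V in each library; points are libraries, DSS+CA left and DSS right of each gene. Sdha lies between 519 and 530 CPM in the DSS+CA libraries, while Sdhb, Cox4i1, Cox7a1 and Atp5c1 reach their highest values in DSS+CA 3.

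Among the assembly factors, Ndufaf6, needed for early complex I assembly, had 5.54, 7.07, 14.8 and 8.46 CPM in DSS+CA 1 to 4, against 4.10, 5.35, 7.82 and 4.18 CPM in DSS 1 to 4 (log2 fold change 0.74, SE 0.39, adjusted p = 0.727). Ndufaf3, a partner of Ndufaf4, had 12.4, 13.5, 6.27 and 11.8 CPM in DSS+CA 1 to 4, against 5.79, 4.83, 12.03 and 5.80 CPM in DSS 1 to 4 (log2 fold change 0.63, SE 0.38, adjusted p = 0.813). Ndufaf4 had 12.1, 14.5, 24.1 and 14.2 CPM in DSS+CA 1 to 4, against 7.96, 17.6, 9.48 and 10.8 CPM in DSS 1 to 4 (log2 fold change 0.50, SE 0.35, adjusted p = 0.874). The groups overlapped for each. Without DSS+CA 3, DSS 2 and DSS 3, Ndufaf3 was the sole member called, at a log2 fold change of 1.08 and an adjusted p of 0.0327 by edgeR, in a comparison that called 6.61% of all tested genes. Cox7a2l, counted here with the other proteins that share the names, had 104, 119.6, 96.2 and 136 CPM in DSS+CA 1 to 4, against 85.7, 126, 135 and 104 CPM in DSS 1 to 4 (log2 fold change 0.014, SE 0.27, adjusted p = 0.999).

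The spread over all 8 libraries was thus wide, and it was shared by many nuclear subunits. Of the 75, 35 were highest of all 8 libraries in DSS+CA 3, 27 were highest in DSS 3, and 57 were lowest in DSS 1. No such count over all tested genes was made here, so these counts are not read as a trait of these subunits. In 9 of the 75 the highest library was over 10-fold above the lowest, with DSS+CA 3 highest in all 9 and DSS 1 lowest in 8. In 10 of the 75 the spread was under 2-fold. Of all 9913 tested genes, 433 were over 10-fold and 1341 under 2-fold. Without DSS+CA 3, 3 of the 75 were over 10-fold and 13 under 2-fold, and without DSS 2 and DSS 3 as well, 0 were over 10-fold and 42 under 2-fold. Over all 9913 tested genes these counts were 293 and 1917 without DSS+CA 3, and 91 and 6640 without DSS 2 and DSS 3 as well. Across the 75 genes, which are not independent replicates, transcript length had a Spearman rank correlation of -0.38 with the log2 spread, of -0.35 with the log2 level of DSS+CA 3 over the other DSS+CA libraries, and of 0.38 with the log2 fold change. Deposited gene length had -0.43, -0.35 and 0.25 with the same measures, and GC content had -0.11, -0.26 and -0.14. The share of 50-base stretches also found in another gene had 0.07, 0.18 and -0.04 with them. Median GC content was 51.0% in nuclear subunits, 37.1% in mt- mRNAs and 50% in all tested genes with a value.

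Promoters were searched for motifs known from respiratory genes, and short stretches around NRF1 or ETS matches are shown for some of the described genes. Others, such as Atp5g2 and Atp5l with an NRF1 match and Atp5b with CCAAT matches, are not printed. RefSeq promoters (GRCm38.p6, 250 bases before to 50 after each gene start) matched 73 of the 93 nuclear genes and 66 of the 83 subunits. The NRF1 motif TGCGCATGC on either strand was in 7.58% of the 66 subunit genes and 2.23% of 17492 protein-coding genes. The YY1 motif AAGATGGCG was in 10.6% of the subunit genes and 2.14% of all. The ETS motif CCGGAAGT, bound by GABPA, was in 7.58% of the subunit genes and 5.69% of all. The CCAAT box, the motif CCAAT bound by NF-Y, was in 43.9% of the subunit genes and 42.3% of all. A match says only that these letters are in the window.
Uqcrc1, chr9:108936668-108936697, plus strand: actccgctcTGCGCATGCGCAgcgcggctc
Ndufaf4, chr4:24897960-24897986, plus strand: ccagatgtcTGCGCATGCgcctgtgcg
Cox8a, chr19:7217606-7217631, minus strand: ttccgaaatACTTCCGGctcgggcgt
Ndufs3, chr2:90904705-90904730, minus strand: cacatttccACTTCCGGtccgtgccc

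Capitals mark the NRF1 motif in Uqcrc1 and Ndufaf4, and the ETS motif, read on the other strand, in Cox8a and Ndufs3. Ndufaf4 holds another NRF1 match within chr4:24898074-24898100, and Cox8a another ETS match within chr19:7217569-7217594, neither of them printed. In Uqcrc1 a pair of NRF1 matches on opposite strands overlap, the sole overlap among the 21 matches to the NRF1, YY1 and ETS motifs in member promoters. These 4 genes did not share an order of libraries, since Uqcrc1 was highest in DSS 3, Ndufaf4 in DSS+CA 3, and Cox8a and Ndufs3 in DSS+CA 4.

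Other genes of mitochondrial energy metabolism were counted in lists, and edgeR called 0 members in each. Proteins that process and stabilise mitochondrial RNA had 19 of 20 genes above 0 and a median log2 fold change of 0.37, where all genes had 51.9% above 0 and a median of 0.02. Their levels summed to 584 to 627 CPM in DSS+CA libraries and to 450 to 519 CPM in DSS libraries, which did not overlap. Ptcd2, which binds mt-Cytb RNA in mice, averaged 33.1 ± 3.42 CPM in DSS+CA libraries and 20.7 ± 2.88 CPM in DSS libraries (SD, n = 4 each; log2 fold change 0.68, adjusted p = 0.451 by edgeR). Fastkd3, of the FASTK family of mitochondrial RNA-binding proteins, averaged 10.7 ± 1.08 CPM in DSS+CA libraries and 6.31 ± 1.27 CPM in DSS libraries (log2 fold change 0.76, adjusted p = 0.461 by edgeR). Of the mt- mRNAs themselves 12 of 13 were below 0, and a link between these genes and the mt- mRNAs was not tested.

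Mitochondrial transcription and replication had 9 of 17 tested genes above 0 and a median of 0.01. Its smallest p belonged to Top1mt, the mitochondrial topoisomerase, at 6.65 ± 0.60 CPM in DSS+CA libraries and 3.74 ± 0.41 CPM in DSS libraries (log2 fold change 0.83, adjusted p = 0.398 by edgeR). Nuclear regulators of mitochondrial genes had 6 of 11 above 0. Among them Ppargc1a, a coactivator of mitochondrial biogenesis, averaged 21.4 ± 5.48 CPM in DSS+CA libraries and 43.1 ± 15.6 CPM in DSS libraries (log2 fold change -1.01, adjusted p = 0.376 by edgeR), with the groups overlapping.

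The tricarboxylic acid cycle list had 13 of 17 genes above 0 and a median of 0.26. It summed to 5364 to 5729 CPM in DSS+CA libraries and to 4346 to 4885 CPM in DSS libraries, without overlap. Dlat, a subunit of pyruvate dehydrogenase, averaged 79.6 CPM in DSS+CA libraries and 48.9 CPM in DSS libraries (log2 fold change 0.70, adjusted p = 0.388 by edgeR). Electron carriers (ubiquinone synthesis, cytochrome c, the electron transfer flavoprotein genes Etfa, Etfb and Etfdh, and the glycerol phosphate dehydrogenase Gpd2) had 12 of 16 above 0 and a median of 0.34. Assembly of complex IV had 18 of 23 above 0 with a median of 0.19, complex I assembly outside the Ndufaf names 7 of 8 with 0.28, and assembly of complexes II, III and V 9 of 12 with 0.14. Nucleotide carriers, porins and uncoupling proteins had 7 of 8 above 0 and a median of 0.22. Each list in this group had more genes above 0 than below, and no gene of them passed the test.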

How the data were processed

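Each library came as 1 table with a raw count and an FPKM per gene, per the file headers. The submitters' processing notes name HISAT2, StringTie, GRCm38 and mm10, without versions. What counted the reads, with which annotation and strand setting, is not given in the sources used here. Deposited FPKM values equal the count over a fixed gene length and the library's total. Library kits were TruSeq Stranded Total RNA, per the labels' protocols.

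Counts were tested with edgeR 4.0.16 (quasi-likelihood, TMM scaling, group as the only term, 2-sided, R 4.3.3) in genes with an FPKM of at least 1 in at least 4 of 8 libraries, adjusted by Benjamini-Hochberg over 9913 genes with a threshold of 0.05. The SE is the log2 fold change over the square root of F. DESeq2 1.42.0 was an alternative. The fitting script was tested on simulated data. CPM are TMM-scaled. Replicate numbers were not used as pairs, since same-numbered libraries correlated at 0.75, -0.34, 0.11 and 0.20.

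Members and lists were chosen with earlier results of these data known. Named were all mt- mRNAs, called members, the 3 smallest p and the highest mean FPKM per complex, and a fixed set of subunits; of lists, up to 2 genes with the smallest p. Pairs compared by their ratio were chosen after their values were seen. Exons, transcripts and copies were read from GENCODE vM21.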

Additional observations from a re-analysis of the deposited data

Results flagged for a closer look

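In 9 of 94 checks of 1 named member in 1 group of 4 libraries, 1 library lay far from the other 3 by Dixon's 95% criterion; chance alone flags about 1 in 20 groups. In 7 of the 9 the library was DSS+CA 3. It had 2608 CPM of Cox4i1 (440 to 716 CPM in the other DSS+CA libraries), 1155 CPM of Cox6b1 (320 to 441 CPM), 500.8 CPM of Cox7a1 (42.4 to 82.3 CPM), 824 CPM of Cox7a2 (126 to 213 CPM) and 973 CPM of Ndufa4 (138 to 238 CPM). Among mt- mRNAs it had 98640 CPM of mt-Co3 (9747 to 20530 CPM in the other DSS+CA libraries) and 10450 CPM of mt-Nd3 (995 to 1987 CPM). In the other 2 the library was DSS 3, with 12.03 CPM of Ndufaf3 (4.83 to 5.80 CPM in the other DSS libraries) and 372 CPM of Sdhc (159 to 192 CPM).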

How the results depend on the processing

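No member was called under any of the 18 alternatives, the fit without DSS+CA 3, DSS 2 and DSS 3 excepted, which called 1 higher member. The median log2 fold changes of nuclear subunits and of mt- mRNAs, and the mt- to nuclear ratio, moved by less than 1 SD between libraries throughout. Over all tested genes, 4 were called higher and 9 lower, against 7 and 20 with DESeq2 size factors, 51 and 169 with the DESeq2 test, 18 and 61 with no filter, 14 and 51 with the replicate block, 18 and 53 with a gene length offset, 24 and 80 with a GC content offset, 8 and 19 with nuclear copies added to the mt- counts, and 234 and 421 without those 3 libraries; the cause was not tested. The GC offset and the added copies were chosen after seeing the data. Leaving out 1 library gave 0 to 19 higher and 4 to 65 lower, the nuclear median ran from -0.45 to 0.39, the mt- median from -1.06 to -0.27 and the ratio from -1.08 to -0.62.

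Of the 44 named tested members, 25 kept the sign of their log2 fold change in all 18 settings. Values of the opposite sign were 0.036 (no filter), 0.019 (filterByExpr) and 0.12 (without the 3 libraries) for Atp5c1; without the 3 libraries also 0.075 for Cox6b1, 0.082 for Cox7a2 and -0.42 for mt-Nd3. With the GC offset they were 0.094 for Cox4i1, 0.025 for Cox7a2, -0.074 for Cox7a2l, -0.30 for Ndufa4, -0.033 for Sdha, 0.041 for Sdhb, 0.0074 for mt-Atp8 and -0.12 for mt-Nd3. With the length offset they were 0.036 for Cox6b1, 0.10 for Cox7a2, -0.012 for Sdha and 0.011 for mt-Atp8. DESeq2's size factors and its test gave -0.028 and -0.027 for Cox7a2l and -0.020 for Ndufa4, and the replicate block -0.074 for Ndufa4 and -0.39 for mt-Nd3. Leaving out 1 library gave -0.72 to 0.35 for Atp5c1, -1.07 to 0.31 for Cox4i1, -0.84 to 0.15 for Cox6b1, -1.06 to 0.93 for Cox7a1, -1.04 to 0.37 for Cox7a2, -0.10 to 0.11 for Cox7a2l, -0.011 to 0.69 for Cyc1, -0.99 to 0.48 for Ndufa4, -0.45 to 0.47 for Ndufb9, -0.0097 to 0.35 for Ndufs1, -0.034 to 0.19 for Sdha, -1.03 to 0.31 for Sdhb, -0.051 to 0.63 for Uqcrc1, -0.11 to 0.39 for Uqcrc2, -1.03 to 0.021 for mt-Atp6, -0.90 to 0.10 for mt-Atp8, -0.64 to 0.13 for mt-Nd1, -1.23 to 0.40 for mt-Nd3 and -1.08 to 0.22 for mt-Nd6.

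With 4 libraries a group and the spread between them described above, an adjusted p above the threshold does not show that a member did not differ. The 8 members left out were removed by the FPKM filter; without it 104 members were tested, and with edgeR's filterByExpr 100. The spreads without DSS+CA 3 and without the 3 libraries were added after seeing the data.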
